A study of Mus musculus with 4 samples.

Results

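The 35 genes described here are type I interferon-stimulated genes, chosen by symbol from a fixed list and read as raw UMI counts (unique molecular identifiers, one per captured RNA molecule) in 4 single-cell libraries of aged mouse lung. The feature tables held 34 of the 35 symbols among 31054 features, and Mx2 had no row under that name. The mice were male C57BL/6, 19 months old at the start of treatment, and received either BPTES, an inhibitor of the glutaminase GLS1, or DMSO, its solvent, over 1 month, with 2 libraries in each group. Lungs of both groups were dissociated with Liberase for 1 hour, sorted on CD45 and recombined at 20000 CD45-negative to 9000 CD45-positive cells, so shares of immune and other cells were set by the sort. The labels do not say whether replicates came from separate animals, so p-values measure the spread between libraries, which may be technical.

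Type I interferons bind the receptor chains Ifnar1 and Ifnar2. The kinases Jak1 and Tyk2 then activate Stat2, which works with Irf9 at interferon-stimulated response elements in the promoters of target genes. The induced proteins include RNA-binding inhibitors of translation (the Ifit family), the ubiquitin-like protein Isg15 and its protease Usp18, oligoadenylate synthetases (Oas genes), GTPases (Mx1), the radical SAM enzyme viperin (Rsad2), RNA sensors (Ddx58, the gene of RIG-I, Ifih1, the gene of MDA5, and Dhx58) and the factors Irf7, Irf9 and Stat2 that drive the response further. A low tonic level of these genes is known in many tissues without infection.

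The promoter sequences of 6 members that carry the results below are shown because each holds the core of such a response element. RefSeq promoter windows (build GRCm38.p6, 250 bases before to 50 after a start) were matched by symbol for 26 of the 34 members. The motif GAAANNGAAA, searched on both strands so that it also reads TTTCNNTTTC, was present for 14 of these 26 genes (53.8%) and for 3.99% of all 27025 genes with a window; overlapping matches were counted apart. In the lines below, the 250 bases before the start are given 5′ to 3′ on the gene's strand, with matches in capitals.
Ifit1, chr19:34640639-34640888, plus strand: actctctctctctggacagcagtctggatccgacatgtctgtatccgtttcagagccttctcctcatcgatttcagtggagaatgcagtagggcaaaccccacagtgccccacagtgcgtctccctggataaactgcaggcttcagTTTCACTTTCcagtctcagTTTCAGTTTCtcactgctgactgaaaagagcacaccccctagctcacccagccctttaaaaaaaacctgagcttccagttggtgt
Ifit3, chr19:34583279-34583528, plus strand: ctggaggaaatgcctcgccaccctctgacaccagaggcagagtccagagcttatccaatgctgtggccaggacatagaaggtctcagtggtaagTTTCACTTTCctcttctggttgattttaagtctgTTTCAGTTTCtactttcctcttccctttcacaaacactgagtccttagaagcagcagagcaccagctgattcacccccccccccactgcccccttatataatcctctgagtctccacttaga
Isg15, chr4:156200819-156201068, minus strand: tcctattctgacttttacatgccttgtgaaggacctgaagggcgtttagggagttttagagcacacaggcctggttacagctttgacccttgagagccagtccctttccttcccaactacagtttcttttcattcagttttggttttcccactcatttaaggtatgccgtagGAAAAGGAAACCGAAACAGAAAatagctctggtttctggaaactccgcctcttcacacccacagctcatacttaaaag
Rsad2, chr12:26456453-26456702, minus strand: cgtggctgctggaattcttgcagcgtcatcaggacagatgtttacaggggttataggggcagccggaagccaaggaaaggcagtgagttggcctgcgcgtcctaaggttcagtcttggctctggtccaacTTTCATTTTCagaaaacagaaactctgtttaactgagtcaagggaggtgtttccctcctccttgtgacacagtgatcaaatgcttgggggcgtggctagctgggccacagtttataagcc
Stat2, chr10:128270248-128270497, plus strand: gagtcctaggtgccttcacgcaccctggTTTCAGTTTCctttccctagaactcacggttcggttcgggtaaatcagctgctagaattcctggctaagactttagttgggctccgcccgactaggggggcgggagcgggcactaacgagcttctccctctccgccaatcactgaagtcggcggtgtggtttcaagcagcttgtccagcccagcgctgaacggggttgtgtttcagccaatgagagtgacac
Slfn5, chr11:82951852-82952101, plus strand: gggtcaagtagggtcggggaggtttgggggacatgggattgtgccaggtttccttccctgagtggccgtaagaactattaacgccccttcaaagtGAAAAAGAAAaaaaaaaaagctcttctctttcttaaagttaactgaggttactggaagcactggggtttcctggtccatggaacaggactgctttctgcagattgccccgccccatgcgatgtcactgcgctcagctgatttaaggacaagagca

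Ifit1 and Ifit3 each held 2 matches, at 104 and 85 bases before the start in Ifit1 and at 156 and 122 in Ifit3. Isg15 held 3 overlapping matches, the first at 78 bases before its start. The other members with a window but no match in it were Ifit2, Oasl1, Oasl2, Irf7, Irf9, Cmpk2, Xaf1, Isg20, Herc6, Ifi35, Ifi44 and Samd9l. The 34 members lay on 14 chromosomes. In the GENCODE vM21 annotation (GRCm38), Ifit1, Ifit2, Ifit3 and Ifit3b lay together within 99.3 kb of chromosome 19, and Rsad2 and Cmpk2 within 37.1 kb of chromosome 12. Ifit3 shared 14.9% of the 50-base windows in the last 500 bases of its longest transcript with Ifit3b, and Oas1a shared 56.1% with Oas1g, so counts of these genes may be divided between copies.

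Each library held between 260346570 and 342107092 UMIs, and filters left 63895 cells in all, with library medians of 14102 to 15923 UMIs per cell. Of 63477 distinct barcodes, 418 occurred in more than 1 library. Clusters were named from marker genes with the ending "-like", and 12544 cells (19.6%) stayed unnamed, in clusters whose leading genes went against a name, whose marker score was too low or whose cells were too shallow. A level is given in CPM, UMIs per 1000000, from the counts of a class summed in each library and scaled by TMM. Sums over markers or over members, given in CPM or per 1000000, were not scaled by TMM. Cells of a library are not replicates, and in such sums fewer expressing cells and less RNA per cell cannot be told apart. The counts come from the 3′ end of each RNA, with 1 UMI per molecule whatever its length, so levels of different genes were compared without a length term.

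The members were unevenly expressed, and among the 21 named classes with enough cells in every library to be ranked their summed level was highest in blood vessel endothelial, classical monocyte-like and neutrophil-like cells. A smaller class left out of this ranking, the pDC-like cells (plasmacytoid dendritic cells, known as makers of type I interferon), had more, with 4089 to 4265 member UMIs per 1000000 from 14 to 23 cells in each library. Summed over the 34 genes, venous endothelial-like cells had 3400 ± 415 member UMIs per 1000000 (SD, n = 4) and general capillary endothelial-like cells 3358 ± 337. Aerocyte endothelial-like cells, the gas-exchange capillary class, had 2874 ± 291, classical monocyte-like cells 2858 ± 436 and arterial endothelial-like cells 2668 ± 307. Neighbours in this order overlapped in their libraries. Neutrophil-like cells followed with 2257 ± 341, and AT2-like cells, the surfactant-making epithelium, were lowest with 292 ± 17.9. General capillary endothelial-like cells held 27.8% of all member UMIs and 13.6% of all UMIs, classical monocyte-like cells 9.49% and 5.57%, and alveolar fibroblast-like cells 6.45% and 14.2%. The unnamed clusters held 17.9% of member UMIs. The largest of them, of 5120 cells with general capillary as its nearest marker class, had 2195 to 2719 member UMIs per 1000000. Its 10 leading genes held 0 general capillary markers and 2 arterial ones, Efnb2 and Gja4, so it was not named.

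The highest members over all cells were Slfn5 (218 ± 18.7 CPM, SD, n = 4), a Schlafen family nuclear protein, Bst2 (156 ± 16.2 CPM), the gene of tetherin, which holds budding virus at the membrane, and Ifi27l2a (137 ± 19.6 CPM), a small mitochondrial protein. They were followed by Parp14 at 104 CPM, Trim30a at 93.0, Stat2 at 76.4, Herc6 at 71.7, Ifih1 at 70.6, Samd9l at 63.5 and Ddx58 at 60.7. The 5 lowest were Oas1a at 7.72 CPM, Oasl1 at 7.69, Ifit3b at 6.99, Oas3 at 5.64 and Mx1 at 5.60. Of genes often used to score the response, Isg15 was at 51.6 CPM, Ifit1 at 21.96 and Rsad2 at 15.4. In 22 of the 34 members the lowest class was AT2-like.

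The members differed in the ranked class in which they were highest, although for 21 of the 34 the libraries of the highest class overlapped with those of the next. Venous endothelial-like cells were highest for 9 members, aerocyte for 4, general capillary for 2 and arterial endothelial-like cells for 1. Slfn5 reached 706 ± 69.8 CPM in aerocyte endothelial-like, 670 in general capillary and 615 in venous endothelial-like cells, with the lowest aerocyte library at 605, and 3.89 CPM in alveolar fibroblast-like cells. Bst2 was highest in arterial endothelial-like cells at 405 ± 31.9 CPM, and Ifit1 in venous endothelial-like cells at 78.9 ± 17.7 CPM. Classical monocyte-like cells were highest for 6 members, and there Ifi27l2a had 811 ± 124 CPM, followed by neutrophil-like cells at 324 CPM. Irf7, the factor that amplifies interferon-alpha production, had 117 ± 13.5 CPM in classical monocyte-like cells, the sensor Zbp1 91.7 ± 7.14 CPM and Mx1 36.4 ± 12.04 CPM. The next class for Mx1, non-classical monocyte-like cells, had 8.77 CPM.

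Neutrophil-like cells were highest for 7 members, among them Isg15 (250 ± 71.2 CPM), Rsad2 (103 ± 47.2 CPM), Oasl1 (56.5 ± 16.2 CPM) and Oas3 (55.9 ± 8.25 CPM). Oas3 and Mx1 had 1.40% and 2.30% of their UMIs in general capillary endothelial-like cells, against 42.0% for Slfn5 and 49.3% for Ifi44. Single members went elsewhere: Usp18 was highest in ciliated-like cells (130 ± 6.23 CPM), Ifi35 also there (252 ± 9.28 CPM), Samd9l in B-like cells (162 ± 14.9 CPM), Ifit3 in AT1-like cells (83.6 ± 15.3 CPM, with 71.1 in venous endothelial-like cells) and Ifit2 in alveolar fibroblast-like cells (49.8 ± 3.11 CPM). For Ifit1, Ifit2 and Ifit3, neighbours on chromosome 19, the libraries of the highest class overlapped with those of the next.

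**Figure D1:**
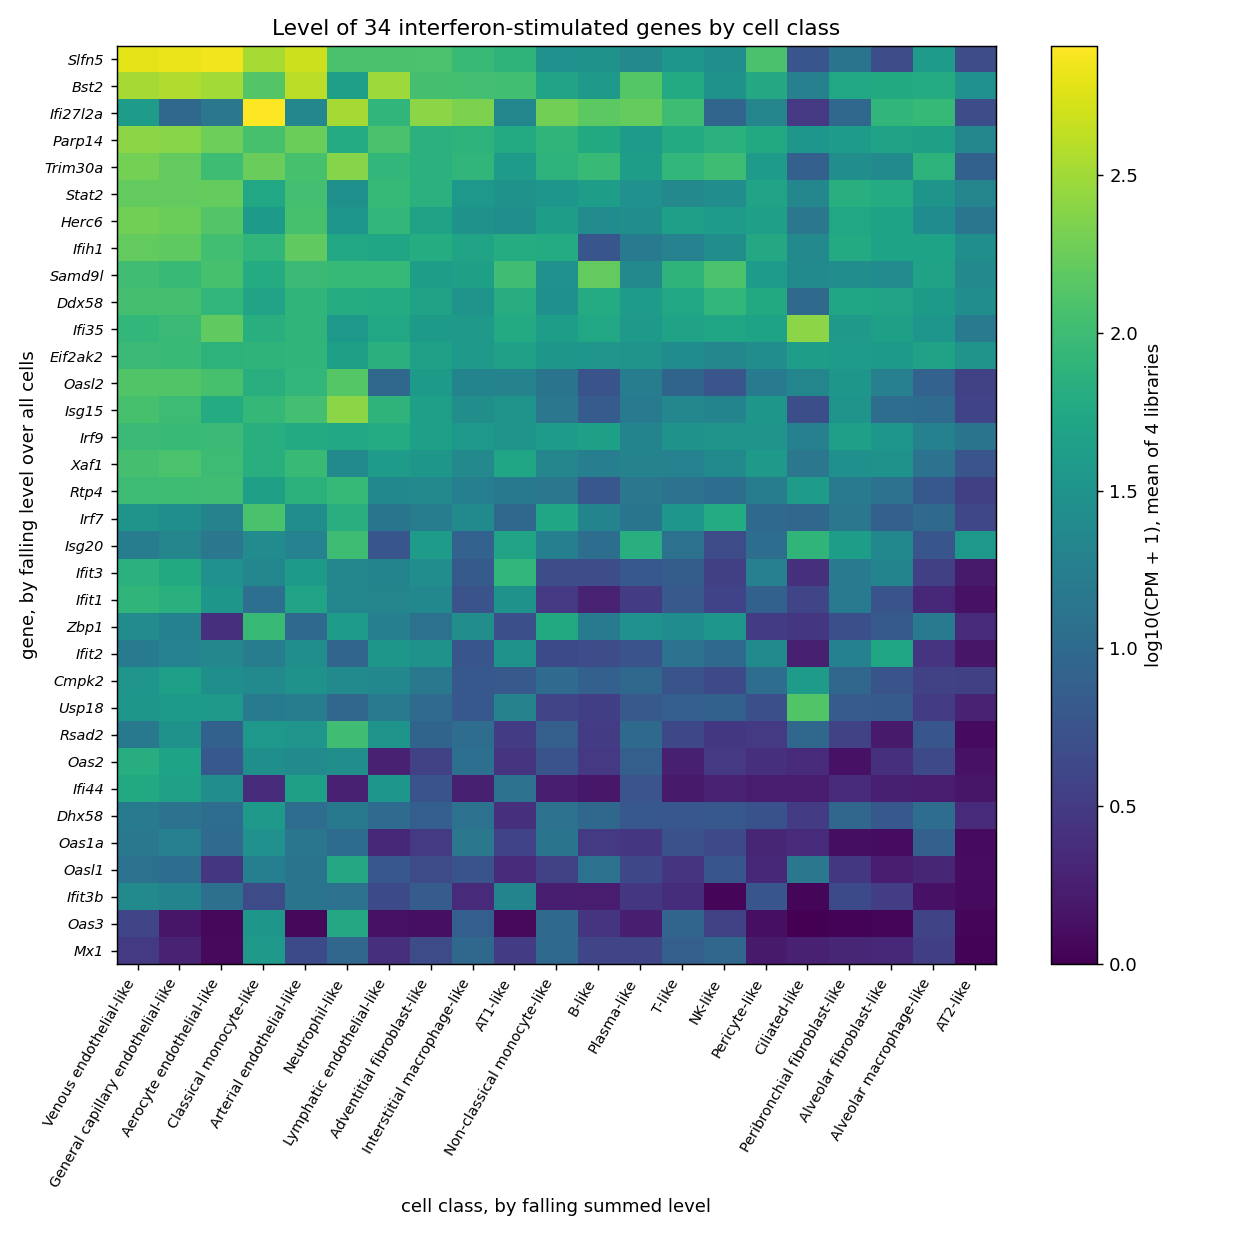
Mean level over 4 libraries of the 34 members (rows, by falling level over all cells) in 21 named classes (columns, by falling summed level), as log10(CPM + 1). Endothelial columns at the left are bright for Slfn5, Bst2 and Parp14, Ifi27l2a is brightest in classical monocyte-like cells at 811 CPM, and the AT2-like column is dark.

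How much of the signal came from few cells was read after each cell was thinned to 3000 UMIs, which left out 4504 shallower cells (1051 and 941 of the BPTES and 1089 and 1423 of the DMSO libraries). The limit was the lowest count that at most 5% of all thinned cells reached. A cell was thus called interferon-high with at least 5 UMIs of the 11 members Ifit1, Ifit2, Ifit3, Ifit3b, Isg15, Rsad2, Oasl1, Oasl2, Cmpk2, Usp18 and Mx1. By this count 2252 of 59391 cells (3.79%) were high, 67.5% of cells had no UMI of the 11 genes, and the high cells held 43.4% of the UMIs of the 11 genes. The count per cell is a continuous range: 560 of the high cells had exactly 5 UMIs and 943 cells had 4. Without thinning, 20.02% of cells reached 5 UMIs. The variance of the count was 7.09 times its mean, against 1 for Poisson counts.

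The other 23 members, which had no part in choosing the cells, were all higher in high cells, with 15.7 UMIs per thinned cell against 4.22 in the rest. Their ratios of high to other cells ran from 1.71 for Ifi27l2a to 11.4 for Ifi44, with a median of 4.33. Oas3 (8.85), Oas1a (7.14), Rtp4 (7.13), Irf7 (6.03) and Oas2 (6.01) were among the steeper ones. The ratios of the abundant members were lower, with Slfn5 at 3.38 and Bst2 at 2.67. The high cells held 12.8% of the UMIs of these 23 members. These ratios mix cell classes, since high cells were not spread evenly over them.

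Interferon-high cells were most frequent in neutrophil-like cells (13.8%, exact 95% interval 12.5 to 15.1), mesothelial-like cells (11.1%; 223 of the 307 kept cells of this class were from DMSO replicate 1), venous (9.92%), general capillary (8.96%) and arterial endothelial-like cells (8.31%). Classical monocyte-like cells had 4.49% and aerocyte endothelial-like cells 3.88%, while lymphatic endothelial-like cells had 1.68% and alveolar fibroblast-like cells 0.346%. Among AT2-like cells 0 of 1138 were high, which allows a share of up to 0.264% at 3 counts (the exact 95% interval ends at 0.324%). The intervals and limits cover counting error only. Without thinning, the shares at 5 UMIs were 46.3% for neutrophil-like, 32.4% for general capillary endothelial-like and 1.23% for AT2-like cells. One cluster of 903 general capillary endothelial-like cells was itself largely high (68.3%), had 8036 to 9000 member UMIs per 1000000 in the 4 libraries, and held 27.1% of all high cells. Its leading genes began with Ifit1, Ifit3, Ifit3b and Isg15, and members were among the clustering genes. Its high share and member level thus follow in part from how the cluster was formed.

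**Figure D2:**
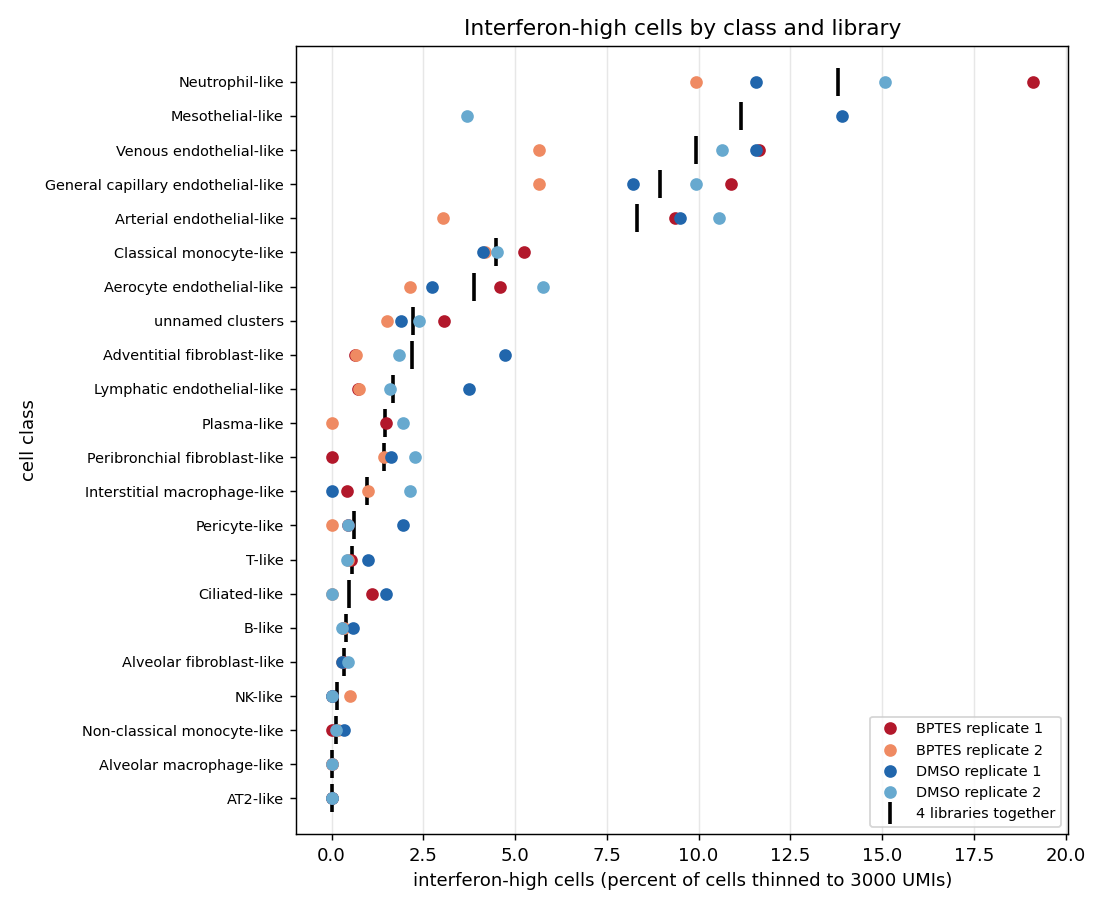
Percent of cells that were interferon-high (x axis, after thinning to 3000 UMIs) in each class with at least 200 thinned cells (rows). Dots are libraries with at least 50 thinned cells and black ticks the 4 libraries together, from 13.8% in neutrophil-like to 0 in AT2-like cells. BPTES replicate 2 lies lowest in the neutrophil, venous, general capillary and arterial rows.

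Over all cells, high cells made up 4.62% and 2.28% in BPTES replicates 1 and 2 and 3.95% and 4.26% in DMSO replicates 1 and 2. The groups overlapped, and BPTES replicate 2 was lowest. The same library was lowest in neutrophil-like cells, at 9.92% against 19.1%, 11.6% and 15.1% in BPTES replicate 1 and DMSO replicates 1 and 2. It was also lowest in general capillary endothelial-like cells, at 5.65% against 10.9%, 8.20% and 9.94%. In lymphatic endothelial-like cells both BPTES libraries (0.733% and 0.752%) lay below both DMSO libraries (3.75% and 1.60%), on 3, 2, 12 and 5 high cells. In adventitial fibroblast-like cells the shares were 0.649% and 0.669% with BPTES and 4.72% and 1.83% with DMSO. In classical monocyte-like cells they overlapped, at 5.24% and 4.18% against 4.13% and 4.51%. With 2 libraries against 2, an exact permutation test cannot go below a two-sided p of 0.333, so no test of these shares was made.

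The first comparison between groups asked which members changed with BPTES in classical monocyte-like cells, the circulating monocytes that enter the lung and mature there. Member by member, levels were mostly higher with BPTES: 31 of 34 log2 fold changes were above 0, against 49.3% of the 12235 genes tested. Their median was 0.42 against -0.0029 for all genes. The groups did not overlap for 24 of the 34 members with BPTES higher, and for 0 with BPTES lower. Summed over the members, however, the groups overlapped. The sums were 3481 and 2713 CPM in BPTES replicates 1 and 2, against 2465 and 2774 CPM in the DMSO libraries. At an adjusted p under 0.05 (edgeR, Benjamini-Hochberg over all genes of the class), 2 of 34 members were called higher and 0 lower, where 0.319% of all genes were called higher. At an unadjusted p under 0.05, 23 members were higher and 0 lower, against 8.47% of all genes higher. DESeq2 called 12 members higher, where it called 0.764% of all genes higher, and edgeR with no filter on low counts called 23, against 2.72% of all genes. Leaving out BPTES replicate 1 lowered the median log2 fold change of the members to 0.29, with 27 of 34 above 0. Leaving out BPTES replicate 2 gave a median of 0.52, with 33 above 0. The medians without DMSO replicates 1 and 2 were 0.37 and 0.55.

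The called members were Rsad2 and Stat2. Rsad2, which makes an antiviral nucleotide, was at 50.5 and 42.1 CPM in BPTES replicates 1 and 2 and at 18.7 and 26.04 CPM in DMSO replicates 1 and 2. It rose by a log2 fold change of 1.04 (SE 0.158, edgeR adjusted p = 0.0495). Stat2, a signalling factor downstream of the receptor, was at 75.0 and 60.2 CPM with BPTES and at 38.6 and 39.9 CPM with DMSO, with a log2 fold change of 0.78 (SE 0.114, adjusted p = 0.0465). For both genes the 2 groups of libraries did not overlap, which is no separate result for genes picked by their calls. Both calls were lost without BPTES replicate 1, with called doublets kept (where no gene of the class was called higher) and with the interferon-high cells left out (cells chosen by 11 members that include Rsad2), and that of Rsad2 also with RLE size factors. Over all alternatives the lowest log2 fold changes were 0.83 for Rsad2 and 0.62 for Stat2. With the interferon-high cells left out, 31 of the 34 members still lay above 0, with a median of 0.40 against 0.42 in the main analysis. At an unadjusted p under 0.05 (edgeR), 23 members were again higher. Of all genes of the class, 0.173% were then called higher, against 0.319% in the main analysis. The 2 highest cells of a library held 11.7% to 26.03% of its Rsad2 UMIs.

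The other antiviral effectors with the largest differences missed the threshold in edgeR, although DESeq2 called the 4 that follow, and Mx1, higher. Ifit3 was at 33.3 and 24.7 CPM with BPTES and at 8.95 and 15.6 CPM with DMSO (log2 fold change 1.22, SE 0.240, edgeR adjusted p = 0.0870). Usp18, which removes Isg15 from proteins and dampens the receptor, was at 24.7 and 15.6 CPM against 8.15 and 10.2 CPM (1.11, SE 0.226, adjusted p = 0.0921). Ifit1 was at 17.6 and 10.9 CPM against 5.89 and 7.34 CPM (1.09, SE 0.244, adjusted p = 0.109). Cmpk2, a mitochondrial nucleotide kinase gene next to Rsad2, was at 38.1 and 22.7 CPM against 15.2 and 17.7 CPM (0.87, SE 0.225, adjusted p = 0.143). In each of these 4 genes BPTES replicate 1 was highest. They were named from the members whose groups did not overlap, so their lack of overlap is no separate result.

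The RNA sensors had smaller differences, with log2 fold changes of 0.43 for Ddx58, 0.39 for Ifih1 and 0.06 for Dhx58, at adjusted p of 0.153 and above. Ifi27l2a, highest in this class, was at 905 and 646 CPM with BPTES and 783 and 909 CPM with DMSO (log2 fold change -0.13), and its groups overlapped. Zbp1 had a log2 fold change of 0.08, Oas3 0.08, Oas1a -0.09 and Irf7 0.19. Mx1 had a larger one without overlap of the groups, at 52.1 and 39.4 CPM against 28.1 and 25.96 CPM (0.76, edgeR adjusted p = 0.0672).

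Upstream of the members, interferon transcripts were almost absent. Of 20 type I and III interferon genes, 15 had 0 UMIs among all kept cells and the rest between 2 and 41, while Ifng, the type II ligand, had 5207, of which 56.8% were in T-like cells. All 15 Ifnb1 UMIs lay in 1 general capillary endothelial-like cell of DMSO replicate 2. In classical monocyte-like cells the receptor chain Ifnar1 was at 92.1 and 90.01 CPM against 95.7 and 94.6 CPM, and Ifnar2 at 169.7 and 188 CPM against 195 and 178 CPM. None of the 18 tested genes on the list of receptors and proximal signalling was called there by edgeR, and none of the 12 tested on the list of nucleic acid sensors. Of 56 tested other genes induced by type I interferon, 2 were called higher, Ifi209 (0.67, adjusted p = 0.0408) and Znfx1 (0.74, adjusted p = 0.0496), and 48 had a log2 fold change above 0. Of all genes of the class, 0.319% were called higher and 49.3% lay above 0. Of 19 genes induced by interferon-gamma, Ifi47, an interferon-inducible GTPase, was called higher (0.76, adjusted p = 0.0408).

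Depth and some markers of other cells differed between the groups in classical monocyte-like cells. Median UMIs per cell were 25793.5 and 25283.5 with BPTES and 29278 and 27497 with DMSO, and mitochondrial UMIs made up 1.41% and 1.40% against 1.52% and 1.49%. All 6 markers of neutrophils were detected, with summed levels of 143 to 145 CPM with BPTES and 165 to 167 with DMSO, and the 7 adventitial fibroblast markers summed to 84.4 to 85.9 against 102 to 108. Sums of B, mesothelial and venous markers, and of the class's own, were also lower in both BPTES libraries. The 8 alveolar fibroblast markers went the other way, with 88.4 and 104 CPM against 55.2 and 72.1. The general capillary, lymphatic, interstitial macrophage and T marker sums overlapped. Their part in the result was not tested.

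The second comparison asked which members fell with BPTES in stromal cells. Lymphatic endothelial-like cells, which line the vessels that drain the lung, had the most calls in the main analysis. Of 30 members tested, 9 were called lower and 0 higher by edgeR, where 0.480% of the 11876 genes tested were called lower. All 30 log2 fold changes were below 0, against 49.5% of all genes, with a median of -0.72 against 0.0030. At an unadjusted p under 0.05, 26 members were lower and 0 higher, against 7.22% of all genes lower. With no filter on low counts 15 members were called lower, against 1.56% of all genes. Mx1, Oas1a, Oas2 and Oas3 were too low to be tested, with 0 to 3 UMIs in each BPTES library.

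Of the Ifit family, 3 members fell and Ifit3b was not called. Ifit3 was at 6.79 and 6.50 CPM in the BPTES libraries and at 32.4 and 32.4 CPM in the DMSO libraries (log2 fold change -2.28, SE 0.209, edgeR adjusted p = 0.00126). Ifit2 was at 14.0 and 12.1 CPM against 62.8 and 45.2 CPM (-2.04, SE 0.200, adjusted p = 0.00134), and Ifit1 at 9.90 and 6.22 CPM against 42.9 and 21.1 CPM (-1.96, SE 0.327, adjusted p = 0.0216). The groups did not overlap in any of the 3 genes, which is no separate result for genes picked by their calls. In DMSO replicate 2, however, 2 cells held 66.9% of the Ifit3 UMIs and 59.5% of the Ifit2 UMIs. Leaving out the interferon-high cells gave a log2 fold change of -1.11 for Ifit3 (adjusted p = 0.200) and -0.79 for Ifit2 (adjusted p = 0.178). These cells were chosen by UMIs of genes that include Ifit1, Ifit2 and Ifit3, and 12 and 5 of the 22 were from the DMSO libraries. A smaller difference in these 3 genes thus follows in part from how the cells were chosen. Over all 28 members then tested, the median was -0.33, against -0.72 for 30 in the main analysis. At an unadjusted p under 0.05 (edgeR), 14 of the 28 were lower, against 26 of 30 in the main analysis. Of all 11752 genes then tested, 843 were lower.

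Oasl2, an Oas-like protein with ubiquitin-like domains, was at 2.72 and 1.41 CPM with BPTES, from 14 and 5 UMIs, and at 14.8 and 15.9 CPM with DMSO, from 64 and 61 UMIs (log2 fold change -2.81, SE 0.356, edgeR adjusted p = 0.0104). Ifi27l2a was at 51.4 and 36.4 CPM against 140 and 95.01 CPM (-1.40, adjusted p = 0.0117). Rtp4, a chaperone-like transmembrane protein, was at 14.0 and 11.3 CPM against 32.7 and 29.0 CPM (-1.27, adjusted p = 0.0176). These 3 genes were still called without the interferon-high cells, as was Rsad2. The groups did not overlap in the 3 genes, again no separate result.

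Of the remaining calls, Isg15 was at 50.3 and 47.5 CPM with BPTES and 126 and 82.7 CPM with DMSO (log2 fold change -1.10, edgeR adjusted p = 0.0199). Irf7 was at 7.57 and 6.50 CPM against 21.6 and 15.1 CPM (-1.37, adjusted p = 0.0415). Slfn5 was at 79.2 and 101 CPM against 161 and 135 CPM (-0.73, adjusted p = 0.0346). The groups did not overlap in any of the 3, again no separate result. All 3 calls were lost without the interferon-high cells, that of Irf7 also with DESeq2 and with the replicate block, and that of Slfn5 also with the replicate block. Over all alternatives the log2 fold changes nearest to 0 were -1.01 for Irf7, -0.55 for Slfn5 and -0.45 for Isg15. Rsad2, at 24.8 and 4.80 CPM against 53.8 and 41.5 CPM, had a log2 fold change of -1.59 and was not called (adjusted p = 0.117), with both BPTES libraries low but far apart. Members not called that had log2 fold changes nearer to 0 included Bst2 (-0.27), Stat2 (-0.37) and Samd9l (-0.06).

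**Figure D3:**
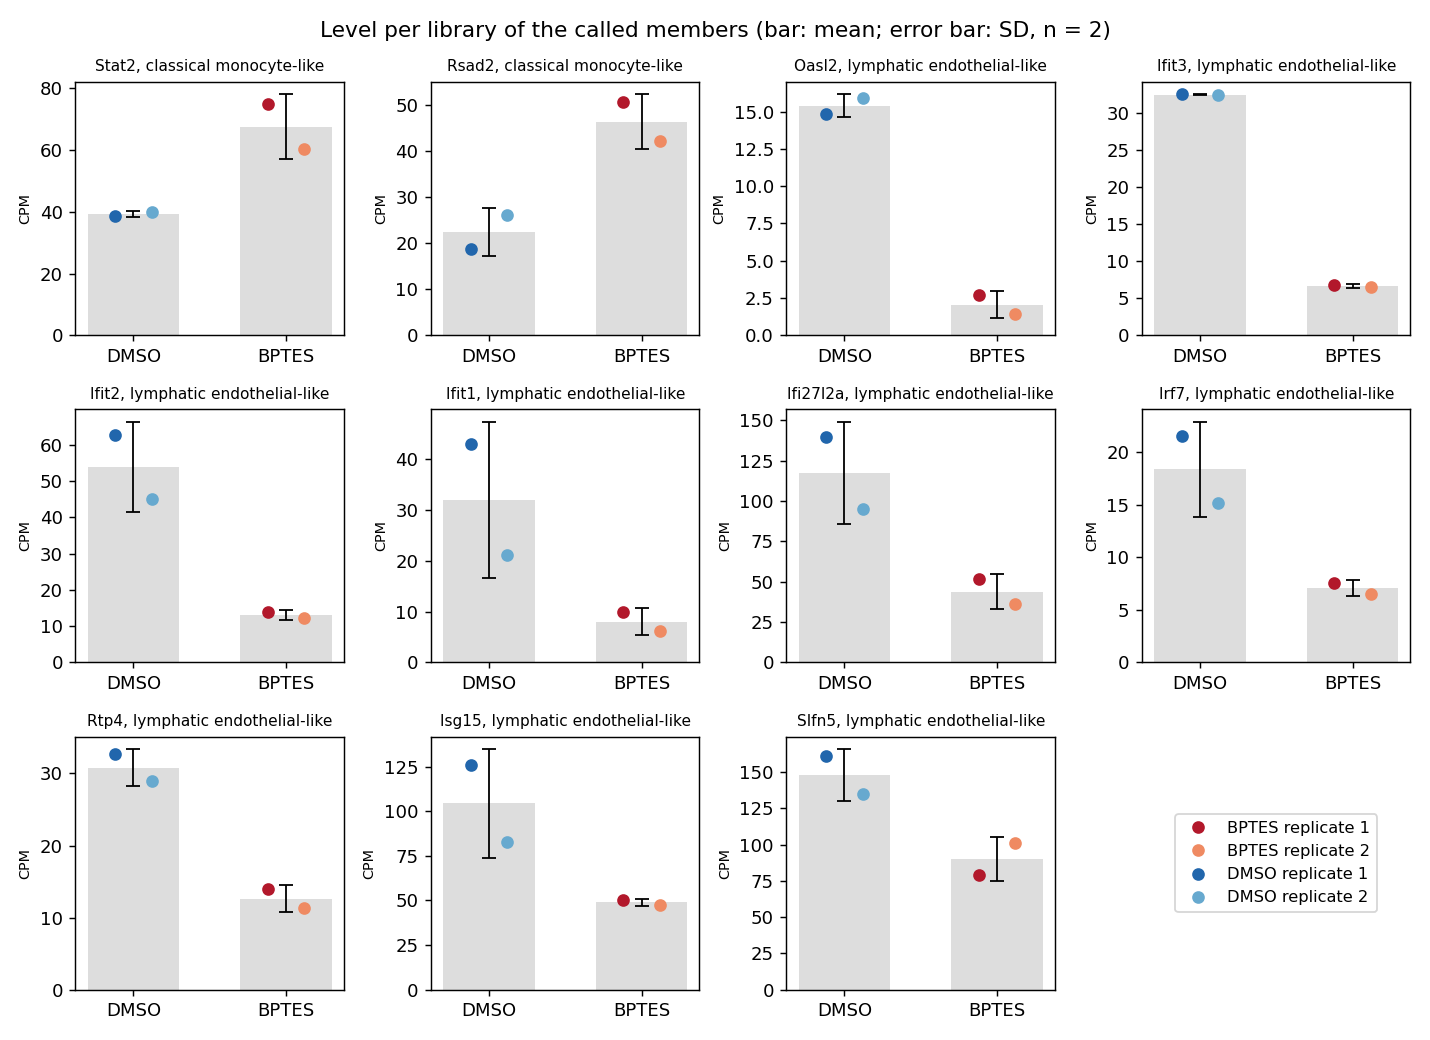
Level in CPM (y axis, from 0) of the 11 calls, 2 in classical monocyte-like and 9 in lymphatic endothelial-like cells. Dots are libraries, bars the mean and error bars the SD of 2 libraries. Ifit3 in lymphatic endothelial-like cells lies near 6.65 CPM for BPTES and 32.4 CPM for DMSO. The 2 groups of dots do not overlap in any panel, which is no separate result, since the genes were picked by their calls.

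In lymphatic endothelial-like cells the receptor chains had log2 fold changes of -0.07 for Ifnar1 and -0.02 for Ifnar2. On the list of receptors and proximal signalling, 1 of 17 tested genes was called lower, the factor Irf1 (224 and 222 CPM against 330 and 329 CPM, log2 fold change -0.56, edgeR adjusted p = 0.0215). Of all genes of the class, 49.5% lay at or below 0 and 0.480% were called lower. Of 47 other type I interferon genes, 45 were at or below 0 and 2 were called lower, Ly6a (-1.01, adjusted p = 0.0346) and the ubiquitin ligase Rnf213 (-0.68, adjusted p = 0.0176). Of 21 genes induced by interferon-gamma, all lay at or below 0 and 2 were called lower. They were Iigp1 (161 and 171 CPM against 247 and 256 CPM, log2 fold change -0.60, adjusted p = 0.0199) and the chemokine gene Cxcl10 (0.777 and 5.65 CPM against 13.7 and 25.3 CPM, adjusted p = 0.0406).

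The 22 interferon-high lymphatic endothelial-like cells had a median of 323 UMIs per 10000 of the 7 lymphatic markers against 301 in the other cells of the class. Summed over cells, the 6 classical monocyte markers made up 1.12 UMIs per 10000 in the high cells and 0.480 in the others, with 3 of them at 0 in the high cells, and the 7 T markers 1.41 and 0.162. They held 47.6% of the UMIs of the 11 genes in the class. Their median doublet score was 0.448 against 0.259 in the other cells, and keeping called doublets in the data left 2 of the 9 calls, Ifit2 and Ifit3. With doublets kept, 0.0320% of all genes of the class were called lower, against 0.480% in the main analysis. Marker sums of some other classes differed between the groups too. The 6 general capillary markers summed to 714 and 715 CPM against 817 and 819, the 6 neutrophil markers to 25.3 and 34.8 against 54.0 and 44.7, and the 6 classical monocyte markers to 23.5 and 20.2 against 122 and 30.6. Adventitial fibroblast and T marker sums, and that of the class's own markers, were also lower in both BPTES libraries. The 8 alveolar fibroblast markers were higher, at 626 and 640 CPM against 566 and 559, and the venous, interstitial macrophage, mesothelial and B marker sums overlapped. Their part in the result was not tested. Without DMSO replicate 1, 3 calls were left, again Ifit2 and Ifit3 with Oasl2. For the other calls lost under some alternative, the values nearest to 0 were -1.35 for Ifit1, -1.65 for Oasl2, -1.09 for Rtp4 and -1.05 for Ifi27l2a.

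Adventitial fibroblast-like cells, which surround larger vessels and airways, had members lower with BPTES as a group but no call. Of 33 members tested, edgeR called 0, as it called 0 of 14908 genes (0%). At an unadjusted p under 0.05, 26 members were lower and 0 higher, against 8.13% of all genes lower, and the median log2 fold change was -0.76 against -0.0056 for all genes. DESeq2 called 6 lower, against 0.571% of all genes, and edgeR with no filter on low counts 21, against 2.73%. Ifit1 was at 5.21 and 12.4 CPM with BPTES and 42.8 and 26.8 CPM with DMSO (-1.91, adjusted p = 0.216). Isg15 was at 23.8 and 22.2 CPM against 79.7 and 44.0 CPM (-1.43, adjusted p = 0.211). Ifit3, Zbp1 and Irf7 had log2 fold changes of -1.16, -1.18 and -0.86. These 5 were named from the members whose groups did not overlap, so their lack of overlap is no separate result. In all 5 genes DMSO replicate 1 was highest.

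Ifit2 overlapped between the groups in adventitial fibroblast-like cells, at 29.5 and 29.7 CPM with BPTES and 31.4 and 29.2 CPM with DMSO. Isg20, an RNA exonuclease, was the 1 member with a log2 fold change above 0 (0.19, adjusted p = 0.390). The lower levels were seen in both clusters of the class. In the larger, members summed to 1171 and 1238 CPM with BPTES and 1956 and 1535 with DMSO, and in the smaller to 919 and 887 against 1286 and 1148. The 6 mesothelial markers summed to 3.88 and 12.1 CPM in the BPTES libraries and to 135 and 131 in the DMSO libraries, with 1 to 3 of them at 0. The 6 neutrophil markers summed to 17.5 and 22.3 against 37.2 and 153. B marker sums, and that of the class's own markers, were also lower in both BPTES libraries. The 8 alveolar fibroblast markers were higher, at 4429 and 4366 CPM against 3183 and 4131, as were the T markers, and the other sums overlapped. Their part in the result was not tested.

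**Figure D4:**
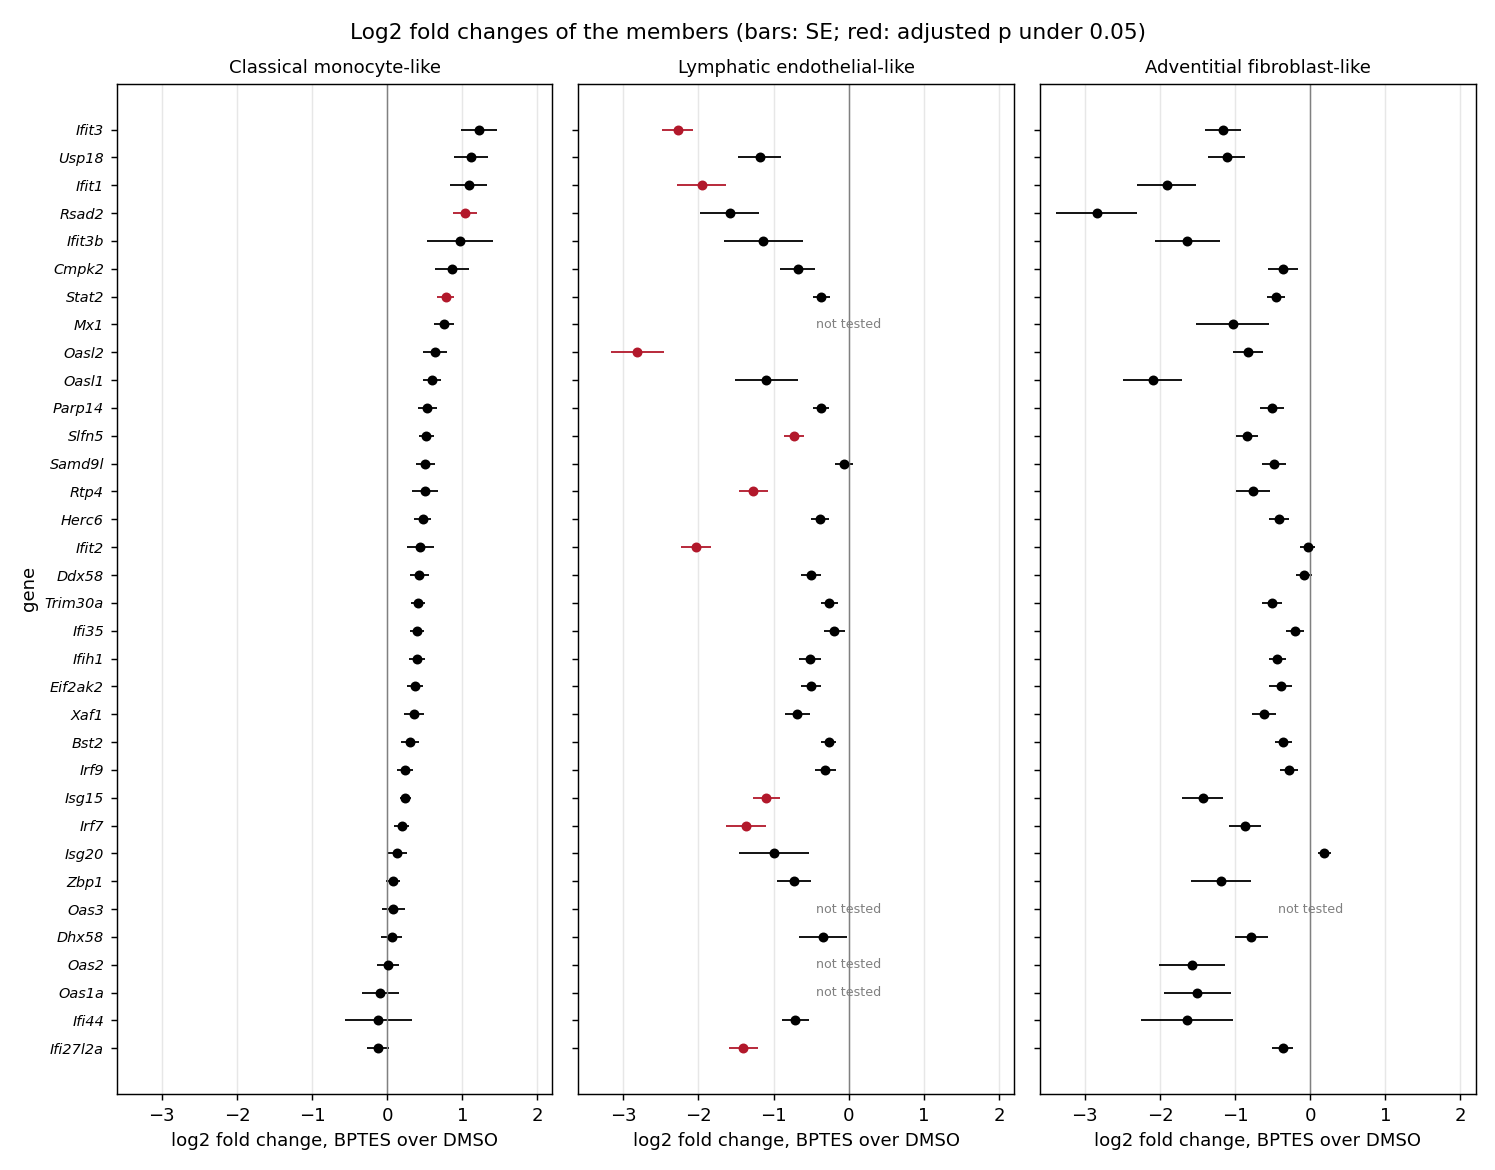
Log2 fold change of BPTES over DMSO (x axis) for each member (rows, ordered by the classical monocyte-like value) in 3 classes. Bars are standard errors and red marks an adjusted p under 0.05. Most dots lie right of 0 in classical monocyte-like cells (median 0.42) and left of it in lymphatic endothelial-like (median -0.72) and adventitial fibroblast-like cells (median -0.76).

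In the 16 fitted classes other than classical monocyte-like and lymphatic endothelial-like, edgeR called 0 of 494 member tests, against 0.159% of all tests in these classes. At an unadjusted p under 0.05, 85 of the 494 were lower (17.2%, against 6.42% of all tests) and 16 higher (3.24%, against 5.82%). DESeq2 called 8 members in these classes, all lower, against 0.359% of its tests lower. With no filter on low counts edgeR called 51, against 2.64% of all tests in either direction. Of the 85 lower ones, 26 were those of adventitial fibroblast-like cells, where 8.13% of all genes were lower. Interstitial macrophage-like cells had 10 of 33 members lower, against 1128 of all 12260 genes. Arterial endothelial-like cells had 8 of 32, against 692 of 9936 genes, and peribronchial fibroblast-like cells 8 of 28, against 634 of 11631 genes.

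Arterial endothelial-like cells had a median member log2 fold change of -0.32. Rsad2 was at 21.97 and 20.2 CPM with BPTES and 44.5 and 40.2 CPM with DMSO (edgeR adjusted p = 0.0869), Ifit3 at 33.96 and 9.33 CPM against 57.3 and 49.1 CPM (-1.25, adjusted p = 0.201), and Irf7 at 22.6 and 11.7 CPM against 37.8 and 32.5 CPM (-1.01, adjusted p = 0.205). Oasl1 and Ifit2 had -0.88 and -0.75. These 5 were named from the members whose groups did not overlap, so their lack of overlap is no separate result. The interferon-gamma chemokine gene Cxcl9 was called lower there (adjusted p = 0.0161), at 0 and 1.56 CPM with BPTES (0 and 2 UMIs) and 17.1 and 55.6 CPM with DMSO (28 and 94 UMIs). In peribronchial fibroblast-like cells the median was -0.36, and Ifit1 was at 11.2 and 5.49 CPM against 20.5 and 23.9 CPM (-1.46, adjusted p = 0.324). Ifit3, Slfn5, Trim30a and Irf7 followed with -1.10, -1.06, -0.68 and -0.67, while Ifi35 went the other way with 0.20.

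In the main analysis no member was called in the blood vessel endothelial classes, while some alternatives called members there. Of the general capillary endothelial-like cells, a cluster with 1929 to 2235 member UMIs per 1000000, against 3164 to 3475 in the largest cluster of the class, held 40.1% and 51.7% with BPTES and 32.8% and 37.1% with DMSO. Its part in the results of this class was not tested. In general capillary endothelial-like cells the median was -0.09, and the largest difference among members of at least 10 CPM whose groups did not overlap was that of Oasl1, at 9.95 and 6.71 CPM with BPTES and 11.2 and 12.99 CPM with DMSO (-0.53, adjusted p = 0.191). Ifih1, Trim30a, Parp14 and Herc6 lay between -0.19 and -0.14. In venous endothelial-like cells the median was -0.15, with -0.45 for Ifih1 (149 and 123 CPM against 194 and 177 CPM, adjusted p = 0.235), -0.46 for Oasl1, -0.44 for Oas2, -0.37 for Trim30a and -0.33 for Stat2. In aerocyte endothelial-like cells the median was 0.0055, and Slfn5 was higher in both BPTES libraries (754 and 751 CPM against 605 and 714 CPM, 0.19, adjusted p = 0.473). Isg20 was higher as well (0.30) and Stat2 lower (-0.14). Cxcl10 was called lower there (0.972 and 0.912 CPM against 6.30 and 9.33 CPM, adjusted p = 0.0321).

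Alveolar fibroblast-like cells were made of a deeper and a shallower cluster, and the shallower held 33.5% and 34.9% of them with BPTES and 17.6% and 24.6% with DMSO. Its part in the results of this class was not tested. In alveolar fibroblast-like cells the median was -0.07. Among members of at least 10 CPM whose groups did not overlap, the differences ran from -0.22 for Oasl2 to 0.33 for Isg20. Isg20 was at 24.05 and 25.05 CPM with BPTES and 18.4 and 20.8 CPM with DMSO (edgeR adjusted p = 0.144). Genes of the interferon-gamma list and Irf1 were called lower in these cells: Cxcl10 (12.5 and 13.2 CPM against 23.2 and 25.6 CPM, log2 fold change -0.93, edgeR adjusted p = 0.0230), Iigp1 (139 and 142 CPM against 213 and 215 CPM, -0.60, adjusted p = 0.0303) and Irf1 (-0.62, adjusted p = 0.0464). In pericyte-like cells, whose cluster also held the smooth muscle gene Myh11 among its leading genes, Ifit3 and Isg15 had -0.95 and -0.50 and Ifi27l2a 0.43. Ifih1, Samd9l and Slfn5 had -0.49, -0.27 and -0.25. All of these had edgeR adjusted p of 0.780 and above. Neutrophil-like cells, with the highest share of interferon-high cells, had a median of 0.18, with 7 members of 34 higher and 1 lower at an unadjusted p under 0.05, against 3.83% of all genes higher. Outside the classes above, called pathway genes were Socs3, the feedback inhibitor of cytokine signalling, in AT2-like cells (184 and 189 CPM against 412 and 339 CPM, adjusted p = 0.0133) and Iigp1 in interstitial macrophage-like cells (6.97 and 5.46 CPM against 21.8 and 19.1 CPM, adjusted p = 0.0267), both lower with BPTES.

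Whether the members' response differed between classical monocyte-like and stromal cells was tested as a class by treatment term, with the library as a block. The term was positive and called (edgeR, adjusted p under 0.05) for 5 members against alveolar fibroblast-like, 7 against general capillary endothelial-like and 21 against lymphatic endothelial-like cells, where 0.691%, 0.266% and 0.827% of all genes were called positive. No member was called negative in the 3 tests. Of the 21, Mx1 could not be tested in lymphatic endothelial-like cells themselves and entered through its monocyte counts, which leaves 20 of the 30 members testable there. Ifit3, Oasl2, Stat2 and Usp18 were called in all 3. For Stat2 the difference of log2 fold changes was 0.86 (SE 0.137, adjusted p = 0.0204) against alveolar fibroblast-like cells, 0.88 (SE 0.116, adjusted p = 0.0249) against general capillary endothelial-like and 1.13 (SE 0.152, adjusted p = 0.00156) against lymphatic endothelial-like cells. With no library block, 0, 0 and 5 members were called in the 3 tests. Without DMSO replicate 1 the first count was 0, without BPTES replicate 2 the second was 0, and without BPTES replicate 1 the third was 2. The 3 tests share the classical monocyte-like counts, so they are not independent of each other.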

How the data were processed

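Single-cell RNA libraries of mouse lung were made with a droplet 3′ assay, per the labels' protocols, and processed with Cell Ranger 8.0.1 on mm10, per the submitters' processing notes. The deposited files were matrices of raw UMI counts per gene and barcode, made by the authors. The members, gene lists and tests used here were chosen with earlier results of these data known.

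Barcodes with at least 500 genes, 1000 UMIs and at most 10% mitochondrial UMIs were kept, and the barcodes with the highest doublet scores, 0.4% of a library for each 1000 of its barcodes, were removed. Cells were clustered with the Leiden algorithm (igraph 0.11.9, resolution 1) on 40 principal components of 2000 variable genes, in Python 3.11.15 with numpy 2.4.6, scipy 1.17.1 and pandas 2.3.3; plots used matplotlib 3.10.9. The 41 clusters were named from fixed markers of 34 classes, and the clustering genes included members, so a class against the rest is described without a test. Counts were summed per library and class, and the 18 classes that had 50 or more cells in each of the libraries went into edgeR 4.0.16 under R 4.3.3 (two-sided quasi-likelihood test, filterByExpr, TMM), with Benjamini-Hochberg adjustment over all genes of a class. The fit was tested on simulated data. DESeq2 1.42.0 was an alternative. The precision is limited by 2 libraries in each group.

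Named are all called members; in classical monocyte-like cells and each stromal class, up to 5 members in each direction with the largest log2 fold change among those of at least 10 CPM whose groups did not overlap; the 10 highest and 5 lowest members; called genes of the 5 pathway lists; and members with a called class by treatment term. Values of some of these are given as ranges. Ifit2 in adventitial fibroblast-like cells, and some members named for a small difference or for their highest class, were chosen after their values were seen. Replicate numbers are shared by the groups, but nothing in the labels ties equal numbers to each other, so no block was used in the main analysis.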

Additional observations from a re-analysis of the deposited data

Results flagged for a closer look

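The difference between the log2 fold change in classical monocyte-like cells and that in a stromal class passed the test of the difference itself (edgeR, class by treatment term, library as a block, adjusted p under 0.05) for 32 pairs of member and class, leaving out 1 member that could not be tested in the stromal class itself. Of all genes, 0.691%, 0.266% and 0.827% were called positive against alveolar fibroblast-like, general capillary and lymphatic endothelial-like cells. With no library block, 0, 0 and 5 members were called in this order, where the shares were 0.0189%, 0.00650% and 0.0784%. Against alveolar fibroblast-like cells the differences called with the block were Mx1 (1.60), Usp18 (1.46), Ifit3 (1.18), Oasl2 (0.86) and Stat2 (0.86). Mx1 was at a mean of 0.821 CPM with BPTES and 1.49 CPM with DMSO in those fibroblasts. Against general capillary endothelial-like cells they were Ifit3 (1.38), Ifit1 (1.32), Usp18 (1.27), Rsad2 (1.22), Stat2 (0.88), Oasl2 (0.76) and Cmpk2 (0.74).

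Against lymphatic endothelial-like cells the members with a difference above 1 were Ifit3 (3.55), Oasl2 (3.48), Ifit1 (3.02), Rsad2 (2.71), Ifit2 (2.47), Usp18 (2.29), Rtp4 (1.79), Irf7 (1.57), Cmpk2 (1.56), Isg15 (1.29), Ifi27l2a (1.26), Slfn5 (1.22), Stat2 (1.13) and Xaf1 (1.04). The others were Ddx58 (0.92), Ifih1 (0.90), Parp14 (0.88), Eif2ak2 (0.85), Herc6 (0.84) and Trim30a (0.65). Mx1 is the member left out, with 1 UMI in the BPTES libraries of the lymphatic class. All 32 differences were positive. The same classical monocyte-like counts stand in the 3 tests, so the lists are not independent.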

How the results depend on the processing

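Changing the processing left every log2 fold change of the 11 called members in its direction. Over 16 alternatives for each, 147 values kept the call and 29 lost it. Some kept values repeat the main fit. In lymphatic endothelial-like cells, clustering without the interferon genes, Leiden resolution 2, another Leiden seed and naming by marker score alone returned its results unchanged. Naming by marker score alone did so in classical monocyte-like cells too. Such values could not lose a call. The 2 members called higher in classical monocyte-like cells became 1 with RLE size factors, 0 with doublets kept, 0 with interferon-high cells left out (added after the data were seen), 12 with DESeq2 and 23 with no filter on low counts. Leaving out 1 library gave 0 (without BPTES replicate 1) to 16 (without BPTES replicate 2). The 9 members called lower in lymphatic endothelial-like cells became 15 with no filter, 2 with doublets kept and 4 without interferon-high cells, and 3 (without DMSO replicate 1) to 16 (without BPTES replicate 1) when a library was left out. Over all these settings the share of all genes called in the same direction ran from 0 to 2.72% in the first class and from 0.0320% to 2.45% in the second. In the other 16 classes together the 0 calls became 51 with no filter, 8 with DESeq2, 2 with clustering without the interferon genes and 1 without interferon-high cells, and 2 to 25 without a library, the most without BPTES replicate 1, where 1.86% of all tests were called against 0.159% in the main analysis.

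With the replicate block the counts were 3 in classical monocyte-like cells, 7 in lymphatic endothelial-like cells and 7 in the other classes. Of all genes, 0.768% were then called higher in the first class and 0.194% lower in the second. In the other classes 1.52% of all tests were called in either direction, against 0.159% in the main analysis. Same-numbered libraries deviated together with correlations of -0.185 to 0.0529 over 18 classes, so nothing shows that the numbers pair the libraries. With a replicate block of crossed numbers, added because 3 classes lay under -0.1, the counts were 18, 11 and 14. The same shares were then 2.28%, 1.03% and 1.56%. No library block in the class by treatment test gave 0, 0 and 5 members in place of 5, 7 and 21. The order is alveolar fibroblast-like, general capillary and lymphatic endothelial-like cells. No filter gave 13 and 20 for the first 2, where 1.82% and 1.59% of all genes were called positive. Clustering without the interferon genes gave 9 and 13, where the shares were 1.25% and 0.518%. RLE size factors gave 14 against general capillary cells, where the share was 0.546%. In the main test the first 2 shares were 0.691% and 0.266%. Leaving out a library gave 0 to 12, 0 to 9 and 2 to 26, while the share of all genes called positive ran from 0.105% to 2.69%, from 0.00631% to 0.702% and from 0.0208% to 1.84%; with no library block it was 0.0189%, 0.00650% and 0.0784%.

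The share of interferon-high cells was 8.12% with a cut for at most 10% of cells and 1.66% with a cut for at most 2%, holding 61.7% and 27.9% of the UMIs of the 11 genes; cells picked by the other 23 members held 19.5% of the UMIs of those members. The causes of these changes were not tested beyond the fewer samples or the genes and cells that each setting adds or removes. Genes with few UMIs limit the depth: in lymphatic endothelial-like cells 4 members could not be tested.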
